A study of Mus musculus with 7 samples.

Results

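The genes described here are 31 genes of cholesterol handling, taken from the deposited table of 57180 mouse genes as the rows whose symbol is on a list of synthesis, uptake and efflux genes. Each of the 31 symbols matched 1 row, and all 31 passed the filter on low counts that left 15838 genes for testing. They comprise 8 enzymes of the mevalonate and isoprenoid route, 12 enzymes of the sterol branch, 4 genes that control the SREBP2 pathway, 2 genes of sterol transport and esterification, and 5 genes of efflux and of the liver X receptors (LXR). RNA came from regulatory T cells (Treg cells, CD4 T cells that restrain immune responses) sorted from B16-F0 melanoma, a transplantable mouse tumour, into a FOXP3-high group of 3 libraries and a FOXP3-low group of 4. All mice were Foxp3-Cre-YFP, a line in which the Foxp3 gene also drives a Cre recombinase and a yellow fluorescent reporter, and every sample is labelled WT. The age of the mice, the sort gates and the source of each replicate are not stated in the labels, so p-values speak only of the variation among these samples, part or all of which may be technical.

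Cells make cholesterol from acetyl-CoA. Early enzymes build mevalonate and join its isoprenoid units, squalene synthase commits the chain to sterols, and a last series of reductions and demethylations ends in cholesterol. The transcription factor SREBP2 drives these genes when sterol in the endoplasmic reticulum is low; SCAP escorts it out of that membrane and the INSIG proteins hold the pair back when sterol is plentiful. When oxysterols accumulate, the LXR nuclear receptors raise the exporters ABCA1 and ABCG1 and the ubiquitin ligase MYLIP, which removes lipoprotein receptors from the cell surface. Dividing T cells draw on the mevalonate route for membranes and for the lipid anchors of signalling proteins.

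Total counts were 9048771 to 11202260 in FOXP3-high and 12177761 to 14546999 in FOXP3-low, and the 31 genes held between 7 and 1646 counts in a library. Foxp3 followed the labels, at 639 to 808 CPM in FOXP3-high and 309.7 to 397 CPM in FOXP3-low. CPM are counts per 1000000 counts, scaled to library sizes normalized by TMM (trimmed mean of M values). The 12 macrophage and monocyte marker genes were detected in both groups: their summed level was 314 to 344 CPM in FOXP3-high and 2154 to 2716 CPM in FOXP3-low, none was at 0 in either group, and all 12 were lower in FOXP3-high. The 12 cell cycle genes summed to 1176 to 1372 CPM in FOXP3-high and 5366 to 5812 CPM in FOXP3-low, and all 12 were lower in FOXP3-high. The 17 T cell identity genes summed to 7151 to 8380 CPM in FOXP3-high and 5179.9 to 5887 CPM in FOXP3-low, with 16 higher in FOXP3-high. The melanocyte genes summed to 3129 to 4332 CPM in FOXP3-high and 1264 to 2296 CPM in FOXP3-low, and all 7 that were tested were higher in FOXP3-high. Each library numbered 3 was the highest of its group in endothelial genes, at 338 CPM in FOXP3-high and 299 CPM in FOXP3-low. The other FOXP3-high libraries had 71.9 and 193 CPM, and the other FOXP3-low libraries 95.3 to 116 CPM. With both libraries numbered 3 left out, 20 of the 31 cholesterol genes were called, the same 20 as with them. Of all genes tested without them 40.8% were called. Fewer cells of a type and less RNA per cell cannot be told apart in such bulk samples.

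Cholesterol genes were mostly lower in FOXP3-high. Most of the decreases were in enzymes of synthesis, which are also 20 of the 31 genes. Of the 31 genes 16 fell and 4 rose (adjusted p under 0.05 in edgeR's quasi-likelihood test, with the Benjamini-Hochberg method over all genes), which is 64.5% of them, against 46.5% of all genes tested; 24.6% of all genes were lower and 21.8% higher, a split that became 48.2% lower and 5.46% higher when each library was scaled to its T cell identity genes. The median log2 fold change, FOXP3-high minus FOXP3-low, was -0.36 over the 31 genes and 0.012 over all genes tested. In 20 of the 31 genes the libraries of the groups did not overlap, 17 with FOXP3-high below and 3 with it above, against 50.7% of all genes in either direction, 26.8% below and 23.9% above. Of the 20 synthesis enzymes 11 fell, 1 rose and 8 did not pass, with a median of -0.46. The 5 efflux and LXR genes split into 2 that fell, 2 that rose and 1 that did not pass, with a median of 0.16 that is the value of Abcg1.

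**Figure D1:**
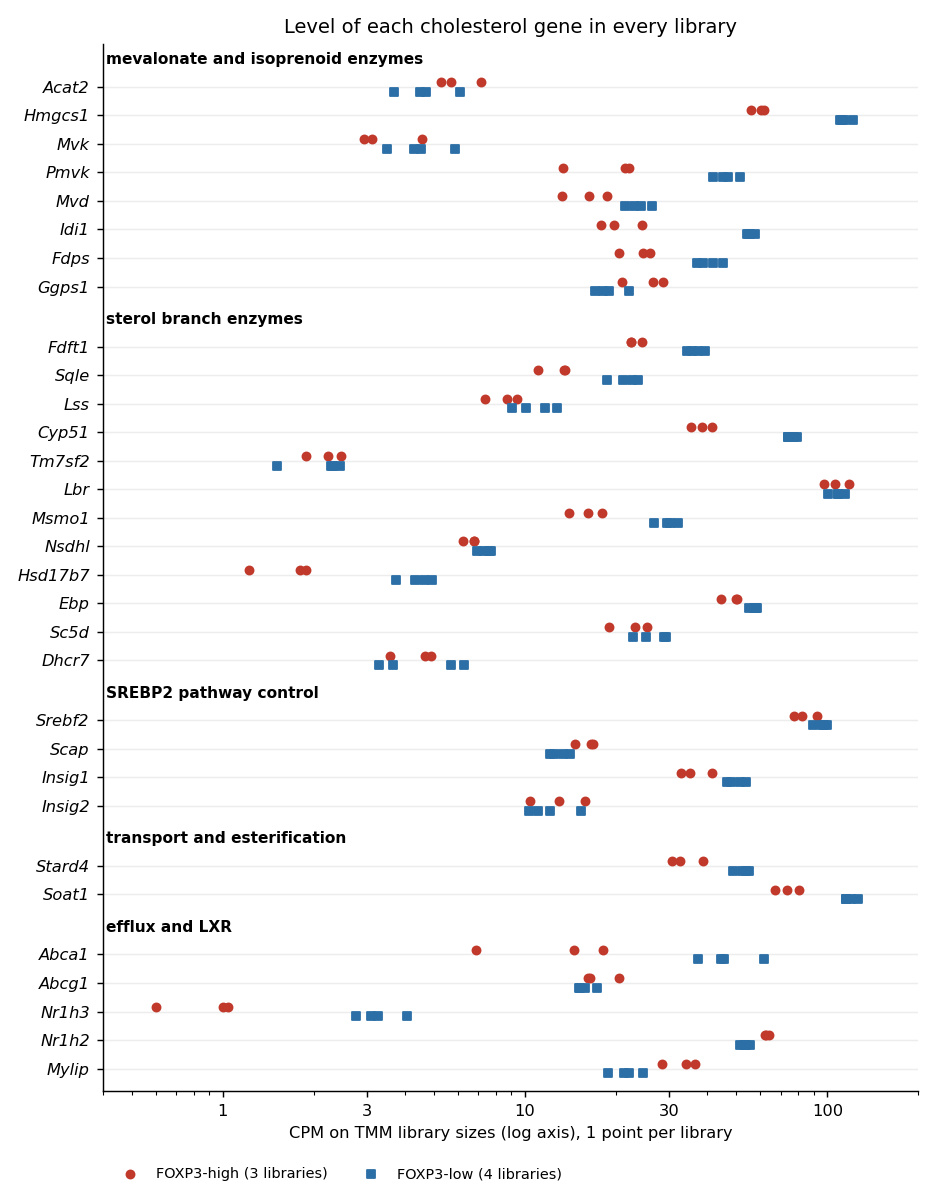
Level of each of the 31 cholesterol genes in CPM on TMM library sizes (log axis), with 1 point per library, FOXP3-high as circles above FOXP3-low as squares in each row, and genes grouped by role. The circles of Hmgcs1, Idi1, Cyp51, Soat1, Abca1 and Nr1h3 lie left of all their squares, those of Mylip and Nr1h2 right of them, and those of Lbr and Insig2 among them.

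The promoters show what the synthesis genes share in sequence. RefSeq windows of 300 bases (250 before to 50 after the start site, build GRCm38.p6) were given for 26 of the 31 genes, in 33 windows. The letters CCAAT, the core of the site of the factor NF-Y that often stands beside SREBP sites, were searched on both strands and found in 16 of the 17 synthesis genes with a window, or 94.1%, against 41.1% of the 27025 genes with a window. On the gene strand alone they were in 9 of the 17, or 52.9%, against 23.7% of all genes. On both strands they also stood in 3 of the 4 control genes and in Soat1. They stood in 1 of 4 efflux and LXR genes, Mylip. A sterol regulatory element in the forms TCACNCCAC or TCACCCNAC was searched on either strand and counted where either matched. It was found in 2 of the 26 genes with a window, Hmgcs1 and Nsdhl, and in 1.93% of all genes with a window. The match in Hmgcs1 has the letters of both forms. The enzymes Fdps, Fdft1 and Sqle had no window and were not searched for any of these letters. The letters CACGTG, an E-box, were in 3 of the 17 synthesis genes and in 8.09% of all genes with a window. A strict form of the direct repeat bound by LXR was searched on both strands, as AGGTCA and GGTCA in either order with any 4 bases between. It was in none of the 33 windows and in 10 of 32851 windows of all genes. Letters this rare would be missing from most short lists, and sites with other letters were not searched. Their absence therefore does not show that Abca1 or another gene lacks an LXR site. These matches describe letters in short windows and are no evidence of binding. The windows of 3 enzymes that were lower in FOXP3-high (Hmgcs1, Idi1 and Msmo1) and of the 2 genes with CCAAT that were higher (Ggps1 and Mylip) are printed to show that CCAAT stands in both kinds; capitals mark CCAAT or its complement ATTGG and, in Hmgcs1, the sterol regulatory element TCACCCCAC. They lie at chr13:119690101-119690400 (plus strand) for Hmgcs1, chr13:8885356-8885655 (plus) for Idi1, chr8:64733529-64733828 (minus) for Msmo1, chr13:14063439-14063738 (minus) for Ggps1 and chr13:45389492-45389791 (plus) for Mylip.
Hmgcs1: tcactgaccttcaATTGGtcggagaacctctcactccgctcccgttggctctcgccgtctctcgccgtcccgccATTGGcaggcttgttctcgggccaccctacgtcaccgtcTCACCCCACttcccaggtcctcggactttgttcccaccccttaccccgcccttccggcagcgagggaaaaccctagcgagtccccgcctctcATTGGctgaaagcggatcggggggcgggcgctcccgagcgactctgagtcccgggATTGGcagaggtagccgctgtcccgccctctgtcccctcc
Idi1: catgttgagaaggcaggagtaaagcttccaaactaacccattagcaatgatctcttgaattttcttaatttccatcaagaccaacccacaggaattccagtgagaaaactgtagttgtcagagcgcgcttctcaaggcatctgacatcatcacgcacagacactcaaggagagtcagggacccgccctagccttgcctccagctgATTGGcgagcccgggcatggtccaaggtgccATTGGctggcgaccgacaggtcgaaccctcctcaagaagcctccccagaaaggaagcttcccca
Msmo1: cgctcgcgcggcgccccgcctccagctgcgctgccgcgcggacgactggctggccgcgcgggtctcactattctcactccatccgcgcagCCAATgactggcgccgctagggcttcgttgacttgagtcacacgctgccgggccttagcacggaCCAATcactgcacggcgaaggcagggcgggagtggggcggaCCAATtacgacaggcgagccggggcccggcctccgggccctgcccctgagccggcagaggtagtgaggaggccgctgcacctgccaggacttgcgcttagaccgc
Ggps1: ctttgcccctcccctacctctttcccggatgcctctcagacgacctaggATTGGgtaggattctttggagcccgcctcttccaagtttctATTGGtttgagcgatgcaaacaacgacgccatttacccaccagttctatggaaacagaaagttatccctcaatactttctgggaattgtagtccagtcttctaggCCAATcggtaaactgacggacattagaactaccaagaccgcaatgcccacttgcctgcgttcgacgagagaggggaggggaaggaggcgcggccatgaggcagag
Mylip: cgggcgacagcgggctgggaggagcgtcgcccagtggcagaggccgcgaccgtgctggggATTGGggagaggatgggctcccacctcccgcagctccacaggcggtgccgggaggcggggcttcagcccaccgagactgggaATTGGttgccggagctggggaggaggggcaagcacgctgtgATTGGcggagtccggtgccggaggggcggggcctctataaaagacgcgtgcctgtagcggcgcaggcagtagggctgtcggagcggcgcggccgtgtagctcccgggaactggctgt

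The mevalonate route was lower in FOXP3-high at most of its steps. Of its 8 enzymes 5 fell, Ggps1 rose and Acat2 and Mvk did not pass, or 75% called against 46.5% of all genes. Hmgcs1 (ENSMUSG00000093930, chromosome 13, 120151915 to 120169618, plus strand, GRCm39), the synthase that makes HMG-CoA, had 60.4, 61.5 and 55.9 CPM in FOXP3-high, against 122, 109.9, 113 and 112 CPM in FOXP3-low. Every FOXP3-high library was near 60 CPM and every FOXP3-low library above 100, a log2 fold change of -0.95 ± 0.063 (SE; edgeR adjusted p = 2.78e-06). Idi1 (ENSMUSG00000058258, chromosome 13, 8935537 to 8941394, plus strand), which isomerizes the basic isoprenoid unit, had 24.3, 17.8 and 19.7 CPM in FOXP3-high, against 54.9, 54.1, 55.2 and 57.6 CPM in FOXP3-low. Idi1 changed by -1.42 ± 0.105 (edgeR adjusted p = 5.01e-06), and the FOXP3-low libraries were within 4 CPM of each other. Pmvk, the second kinase acting on mevalonate, had 21.3, 13.4 and 22 CPM in FOXP3-high, against 51.4, 41.9, 45.1 and 46.9 CPM in FOXP3-low (log2 fold change -1.29 ± 0.16, edgeR adjusted p = 1.40e-04). Replicate 2 was the lowest FOXP3-high library for both Idi1 and Pmvk, and neither gene overlapped between the groups.

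The remaining early enzymes moved less. Mvd, the decarboxylase that forms the isoprenoid unit, averaged 16 ± 2.7 CPM in FOXP3-high and 23.7 ± 2.08 CPM in FOXP3-low (SD, n = 3 and n = 4 here and below), and Fdps, farnesyl diphosphate synthase, 23.7 ± 2.92 CPM in FOXP3-high and 40.6 ± 3.57 CPM in FOXP3-low. Their log2 fold changes were -0.57 and -0.78, with edgeR adjusted p-values of 0.0050 and 2.65e-04. Mvk, mevalonate kinase, stood at 3.53 ± 0.892 CPM in FOXP3-high and 4.54 ± 0.979 CPM in FOXP3-low and did not pass (log2 fold change -0.35 ± 0.25, edgeR adjusted p = 0.28). Acat2, the cytosolic thiolase at the entry of the route, was at 6.03 ± 0.975 CPM in FOXP3-high and 4.75 ± 1.01 CPM in FOXP3-low (log2 fold change 0.35 ± 0.21, edgeR adjusted p = 0.22). Its transcript is 97.7% identical to that of Acat3 over 1477 bases, and Acat3 held 3.93 times as many counts and was lower in FOXP3-high (log2 fold change -0.57, edgeR adjusted p = 0.0019), and it is 98.7% identical to that of Tcp1 over 445 bases, which held 74.8 times as many counts and was also lower (log2 fold change -0.84, edgeR adjusted p = 1.78e-06). The strand of these matches was not recorded, and the division of reads between Acat2 and Acat3 or Tcp1 is uncertain. Idi1 shares 684 identical bases with Gm13502, which held 12.1% as many counts and also fell.

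Ggps1, which lengthens farnesyl to geranylgeranyl diphosphate and so leads away from sterols, had 26.5, 28.6 and 20.9 CPM in FOXP3-high, against 18.9, 18.1, 22.0 and 17.1 CPM in FOXP3-low. FOXP3-high replicate 3 lay below FOXP3-low replicate 3, so the groups overlapped; the log2 fold change was 0.41 ± 0.13 (edgeR adjusted p = 0.026). The call of Ggps1 was lost without FOXP3-low replicate 2 (adjusted p = 0.053), FOXP3-low replicate 4 (0.055), FOXP3-high replicate 1 (0.11) or FOXP3-high replicate 2 (0.079), and over the alternatives other than T cell scaling and the test against a minimum fold its adjusted p ranged from 0.0032 to 0.11. With T cell scaling Ggps1 stood at -0.050 (adjusted p = 0.80). It overlaps Arid4b on the opposite strand, which held 25.3 times as many counts and rose (log2 fold change 0.89), and the sources used here do not say whether the counting used strand. The part of Arid4b reads in this value was not tested.

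In the sterol branch 6 of 12 enzymes fell, 6 did not pass and none rose. The 50% called lay near the 46.5% of all genes called in either direction, of which 24.6% were lower. Cyp51 (ENSMUSG00000001467, chromosome 5, 4131145 to 4154343, minus strand), the lanosterol demethylase, had 41.4, 38.5 and 35.4 CPM in FOXP3-high, against 73.9, 79.3, 74.3 and 77.6 CPM in FOXP3-low. The groups were separated by more than 30 CPM, with a log2 fold change of -0.99 ± 0.073 (edgeR adjusted p = 4.95e-06). Msmo1, the monooxygenase that removes the next methyl groups, had 13.9, 17.9 and 16.1 CPM in FOXP3-high, against 30.2, 32.0, 29.4 and 26.7 CPM in FOXP3-low (log2 fold change -0.89 ± 0.11, edgeR adjusted p = 1.21e-04). Both demethylation steps were thus near a factor of 2 lower, without overlap. Hsd17b7, a ketoreductase of the same complex, fell by 1.41 on the log2 scale at a low level, 1.64 ± 0.361 CPM in FOXP3-high and 4.4 ± 0.51 CPM in FOXP3-low (edgeR adjusted p = 0.0010). Sqle, squalene epoxidase, averaged 12.6 ± 1.4 CPM in FOXP3-high and 21.5 ± 2.15 CPM in FOXP3-low, and Fdft1, squalene synthase, 23 ± 1.13 CPM in FOXP3-high and 36.7 ± 2.18 CPM in FOXP3-low. Both fell, by 0.76 and 0.67 on the log2 scale (edgeR adjusted p = 6.31e-04 and 1.03e-04). Ebp, the sterol isomerase, fell least, at 48.1 ± 3.2 CPM in FOXP3-high and 57.3 ± 1.58 CPM in FOXP3-low (log2 fold change -0.25 ± 0.068, edgeR adjusted p = 0.014).

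The 6 sterol enzymes that did not pass include the one with the most counts in the branch. Lbr, a sterol reductase that is also the lamin B receptor of the nuclear envelope, had 106, 118 and 97.4 CPM in FOXP3-high, against 101, 109, 109 and 114 CPM in FOXP3-low, fully overlapping (log2 fold change -0.014 ± 0.074, edgeR adjusted p = 0.89). Tm7sf2, the other reductase for this step, was near 2 CPM throughout, at 2.19 ± 0.283 CPM in FOXP3-high and 2.13 ± 0.424 CPM in FOXP3-low; it overlaps Vps51 on the same strand, which held 5.94 times as many counts. Nsdhl, the decarboxylating dehydrogenase, had 6.23 to 6.79 CPM in FOXP3-high and 6.94 to 7.73 CPM in FOXP3-low, without overlap but with an edgeR adjusted p of 0.40. Lss, which closes the sterol rings, Sc5d, a desaturase, and Dhcr7, the reductase that ends the pathway, had log2 fold changes of -0.36 ± 0.16, -0.24 ± 0.13 and -0.10 ± 0.27 (edgeR adjusted p = 0.10, 0.16 and 0.79). Sc5d and Lss were thus below 0 by about 2 standard errors, and a lack of a call does not show that these genes were equal.

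Per length the order of the enzymes differed between the groups. In CPM per kilobase of gene, Lbr was first in FOXP3-high at 22.5 ± 2.14, followed by Ebp at 20.8 ± 1.39, a difference smaller than the SD of Lbr, while Hmgcs1 stood at 12.9 ± 0.648 and Pmvk at 11 ± 2.8. In FOXP3-low Pmvk was first at 27.1 ± 2.32, then Hmgcs1 at 24.8 ± 1.14 and Ebp at 24.8 ± 0.685, both within 1 SD of Pmvk, and Lbr was at 22.7 ± 1.17. At the low end were Hsd17b7, at 0.321 ± 0.0708 in FOXP3-high and 0.863 ± 0.0999 in FOXP3-low, Tm7sf2, at 0.498 ± 0.0642 in FOXP3-high and 0.485 ± 0.0963 in FOXP3-low, and Dhcr7, at 0.754 ± 0.121 in FOXP3-high and 0.812 ± 0.253 in FOXP3-low. Hsd17b7 was the lowest of these in FOXP3-high and Tm7sf2 in FOXP3-low, where Hsd17b7 and Dhcr7 differed by less than the SD of either. These per-length levels rest on the deposited gene length, which takes no account of the isoforms in use.

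Of the 4 control genes of the pathway 1 fell, 1 rose and 2 did not pass, or 50% called, near the 46.5% of all genes. Srebf2, which encodes SREBP2, had 82.5, 92.5 and 77.4 CPM in FOXP3-high, against 97.7, 89.8, 95.7 and 99.4 CPM in FOXP3-low; FOXP3-high replicate 2 lay inside the FOXP3-low range. Its log2 fold change was -0.19 ± 0.072 (edgeR adjusted p = 0.061), close to the threshold. It passed as lower without FOXP3-high replicate 2 (-0.23, adjusted p = 0.022), without a filter (0.023), with at least 50 counts in 3 libraries (0.041), with DESeq2 (0.048) and with limma-voom without (0.0497) and with sample weights (0.021). Scaled to T cell identity genes, Srebf2 stood at -0.64 (edgeR adjusted p = 1.08e-04). Insig1 (ENSMUSG00000045294, chromosome 5, 28276361 to 28283660, plus strand), itself a target of SREBP2, had 35.2, 41.6 and 32.7 CPM in FOXP3-high, against 46.6, 51.5, 48.1 and 53.9 CPM in FOXP3-low. All FOXP3-high libraries were lower (log2 fold change -0.46 ± 0.096, edgeR adjusted p = 0.0036). Insig2, its relative that is less dependent on SREBP2, was at 13 ± 2.69 CPM in FOXP3-high and 12.2 ± 2.2 CPM in FOXP3-low (0.10 ± 0.18, edgeR adjusted p = 0.69).

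Scap, the SREBP escort, was higher by a small margin, at 16 ± 1.18 CPM in FOXP3-high and 13 ± 0.889 CPM in FOXP3-low (log2 fold change 0.30 ± 0.11, edgeR adjusted p = 0.046). That call was lost without FOXP3-low replicate 1 (adjusted p = 0.077), 2 (0.085) or 4 (0.058), without FOXP3-high replicate 1 (0.17) or 2 (0.095), and with DESeq2 (0.11), with a range of 0.016 to 0.2 in adjusted p over the alternatives other than T cell scaling and the test against a minimum fold. Scaled to T cell identity genes, Scap stood at -0.15 (adjusted p = 0.36). Scap overlaps 5830462I19Rik on the opposite strand, which held 32.5% as many counts.

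Genes of sterol transport and storage were both lower. Stard4, a cytosolic carrier that returns sterol to the endoplasmic reticulum, had 32.6, 30.6 and 38.8 CPM in FOXP3-high, against 48.6, 52.3, 55.0 and 53.8 CPM in FOXP3-low (log2 fold change -0.62 ± 0.093, edgeR adjusted p = 4.59e-04). Soat1 (ENSMUSG00000026600, chromosome 1, 156252095 to 156301810, minus strand), which esterifies cholesterol for storage in droplets, had 80.2, 67.0 and 73.6 CPM in FOXP3-high, against 126, 119, 115 and 115 CPM in FOXP3-low. Neither gene overlapped between the groups, and Soat1 changed by -0.69 ± 0.071 (edgeR adjusted p = 4.25e-05). Macrophages, whose markers moved the same way, also express Soat1; the part of their RNA in this difference was not tested.

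The efflux genes did not move together. Abca1 (ENSMUSG00000015243, chromosome 4, 53030787 to 53159895, minus strand), which loads cholesterol onto lipid-poor apolipoprotein, had 18.1, 6.90 and 14.5 CPM in FOXP3-high, against 44.4, 45.6, 61.8 and 37.2 CPM in FOXP3-low. FOXP3-high replicate 2 was the lowest library and FOXP3-low replicate 3 the highest, and the groups did not overlap (log2 fold change -1.83 ± 0.28, edgeR adjusted p = 5.90e-04). The summed fibroblast genes were also lowest and highest in these libraries, at 19.9 and 432 CPM. The other FOXP3-high libraries, at 175 and 292 CPM, lay above the other FOXP3-low libraries, at 50.1 to 74.2 CPM. The part of fibroblast RNA in Abca1 was not tested. Abcg1 (ENSMUSG00000024030, chromosome 17, 31276649 to 31333462, plus strand), which passes cholesterol to mature lipoprotein particles, had 16.3, 16.1 and 20.4 CPM in FOXP3-high, against 15.8, 15.0, 17.3 and 15.1 CPM in FOXP3-low. Its groups overlapped and it did not pass (0.16 ± 0.12, edgeR adjusted p = 0.30).

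The receptors that control these pumps also went separate ways. Nr1h3 (ENSMUSG00000002108, chromosome 2, 91014406 to 91033179, minus strand), which encodes LXR-alpha and is known from macrophages and liver, had 0.602, 1.0 and 1.04 CPM in FOXP3-high, against 3.25, 3.09, 4.07 and 2.76 CPM in FOXP3-low. The groups did not overlap (log2 fold change -1.91 ± 0.30, edgeR adjusted p = 6.60e-04), resting on 7 to 11 counts in each FOXP3-high library, and Nr1h3 overlaps Gm13783 on the same strand, which held 18.4% as many counts. Nr1h2 (ENSMUSG00000060601, chromosome 7, 44199040 to 44203319, minus strand), which encodes the widely expressed LXR-beta, had 62.6, 64.1 and 62.4 CPM in FOXP3-high, against 53.9, 55.3, 51.5 and 52.9 CPM in FOXP3-low. The difference was small and free of overlap (0.24 ± 0.058, edgeR adjusted p = 0.0078), but turned to -0.20 (adjusted p = 0.045) when libraries were scaled to T cell identity genes. Mylip (ENSMUSG00000038175, chromosome 13, 45543218 to 45565498, plus strand), the LXR target that degrades lipoprotein receptors, had 34.0, 28.4 and 36.3 CPM in FOXP3-high, against 21.2, 22.1, 24.5 and 18.7 CPM in FOXP3-low. The groups did not overlap, with a log2 fold change of 0.60 ± 0.11 (edgeR adjusted p = 0.0019), and 0.17 (adjusted p = 0.43) with that scaling.

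**Figure D2:**
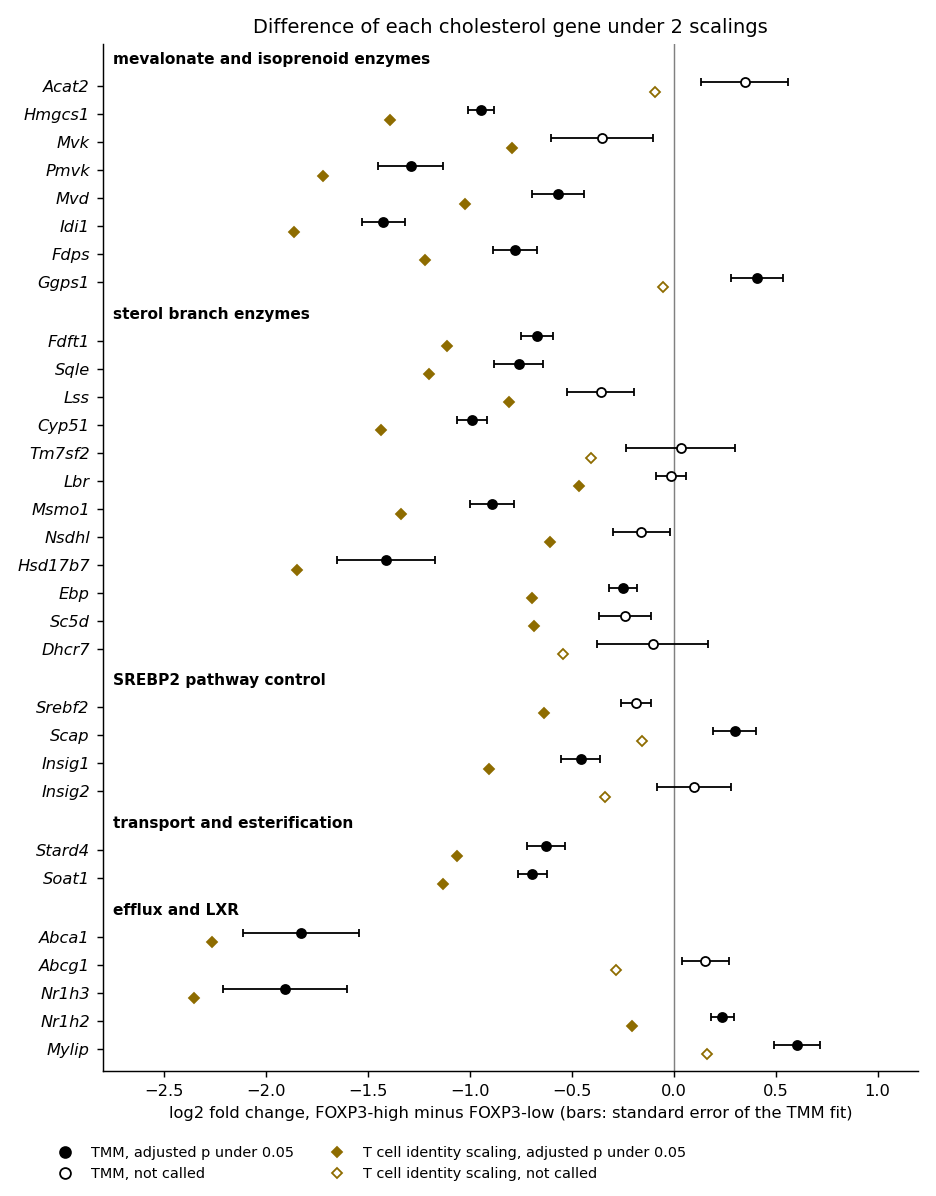
Log2 fold change (FOXP3-high minus FOXP3-low) of each gene with TMM scaling, as circles with standard error bars, and with scaling to T cell identity genes, as diamonds; filled symbols have an adjusted p under 0.05. Idi1, at -1.42, and Abca1, at -1.83, lie left of 0 with both scalings, whereas Scap, Ggps1 and Nr1h2 lie right of 0 with TMM and left of it with T cell scaling.

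Scaling sets the zero line of these differences. When the libraries were scaled to the 17 T cell identity genes, the median of all genes was -0.43 and 53.7% of all genes were called. Of the 31 cholesterol genes 23 were then lower and none higher, with medians of -0.92 for the synthesis enzymes and -0.28 for the efflux and LXR genes. The 16 genes that fell with TMM all fell with T cell scaling. None of the 4 that rose was then called as higher, and Nr1h2 was called as lower. Lbr (-0.47), Lss (-0.81), Mvk (-0.79), Nsdhl (-0.60), Sc5d (-0.69) and Srebf2 (-0.64), which did not pass with TMM, were also called as lower. Against a minimum absolute log2 fold change of 1 (edgeR glmTreat), which 7.06% of all genes passed, 6.19% as lower and 0.865% as higher, 3 of the 31 genes passed, Idi1, Abca1 and Nr1h3, each as lower.

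Ratios of raw counts inside a library are free of any scaling. Idi1 over Ggps1, an early isoprenoid step over the side branch to geranylgeranyl diphosphate, was 0.919, 0.623 and 0.946 in FOXP3-high and 2.90, 2.98, 2.51 and 3.37 in FOXP3-low. Cyp51 over Lbr, neighbouring enzymes of the sterol branch, averaged 0.361 ± 0.0319 in FOXP3-high and 0.707 ± 0.0289 in FOXP3-low, and Hmgcs1 over Srebf2, a target over its activator, 0.706 ± 0.0369 in FOXP3-high and 1.19 ± 0.0537 in FOXP3-low. In each of these 3 ratios all FOXP3-high libraries lay below all FOXP3-low libraries. Abca1 over Abcg1 was 1.11, 0.428 and 0.713 in FOXP3-high and 2.81, 3.03, 3.57 and 2.46 in FOXP3-low, and Nr1h3 over Nr1h2 was 0.0140 ± 0.0038 in FOXP3-high and 0.0618 ± 0.0119 in FOXP3-low, again without overlap. Insig1 over Insig2 was 2.23, 4.02 and 2.53 in FOXP3-high and 4.22, 4.98, 3.99 and 3.52 in FOXP3-low, so that FOXP3-high replicate 2 lay among the FOXP3-low libraries. The summed counts of the 20 synthesis enzymes over those of the 5 efflux and LXR genes gave 3.63, 4.08 and 3.27 in FOXP3-high and 5.04, 4.86, 4.38 and 5.49 in FOXP3-low; FOXP3-high was lower in each library. The genes in these ratios were chosen with their values known, so no test is given.

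**Figure D3:**
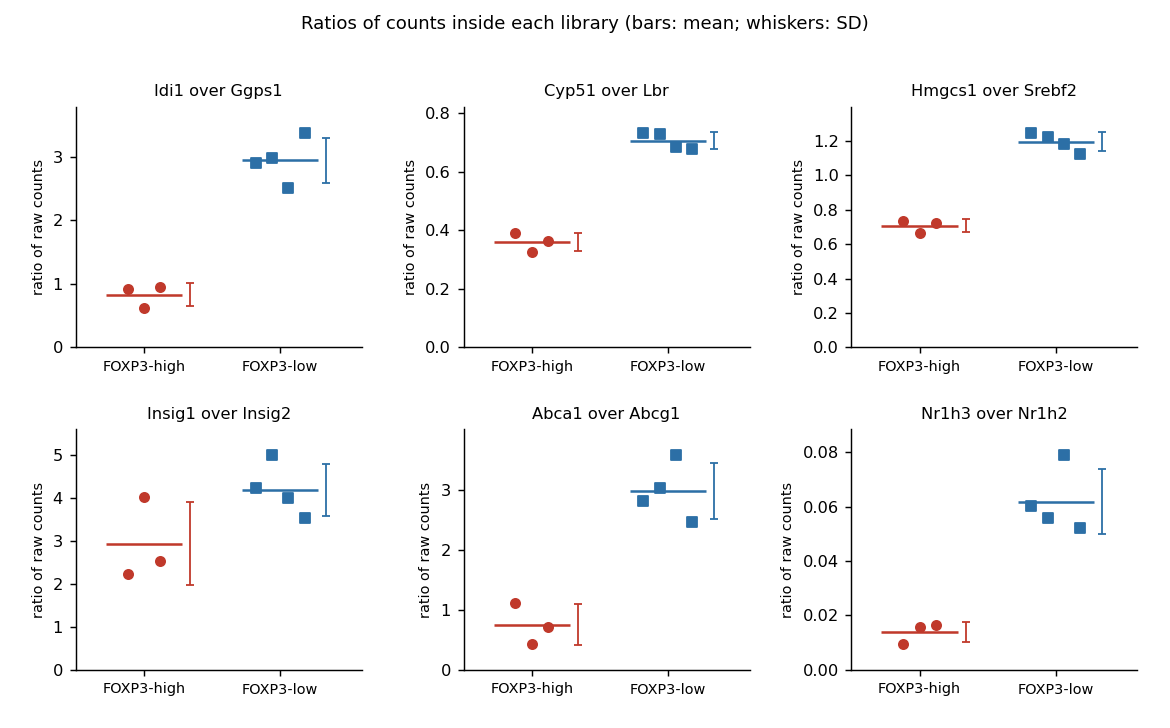
Ratios of the raw counts of paired genes in each library, with FOXP3-high as circles on the left and FOXP3-low as squares on the right of each panel; bars are means and whiskers SDs (n = 3 and n = 4). The groups are apart in Idi1 over Ggps1, Cyp51 over Lbr, Hmgcs1 over Srebf2, Abca1 over Abcg1 and Nr1h3 over Nr1h2, and overlap in Insig1 over Insig2.

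Genes of other immune cells were mostly lower in FOXP3-high, as most cholesterol genes were, and are set beside them here. Other lists differed: all 7 melanocyte genes tested were higher, and none of the 6 endothelial and 5 fibroblast genes tested was called. Itgam, which encodes the myeloid integrin CD11b, changed by -4.42 on the log2 scale. The macrophage list changed by a median of -4.13, with single genes from -5.05 to -1.77, against -1.83 for Abca1 and -1.91 for Nr1h3. Abca1 over Itgam counts were 0.71, 0.40 and 0.445 in FOXP3-high and 0.0736, 0.0814, 0.116 and 0.0784 in FOXP3-low. This ratio restates the fold changes of Abca1 and Itgam, and it would differ with another marker of the list. The 6 neutrophil genes summed to 39.4 to 90.2 CPM in FOXP3-high and 687 to 929 CPM in FOXP3-low, and the 8 dendritic cell and MHC class II genes to 168 to 293 CPM in FOXP3-high and 2319 to 3587 CPM in FOXP3-low; 5 of the 6 and all 8 were lower in FOXP3-high, and none was at 0 in a whole group. The B cell and plasma cell genes summed to 92.2 to 123 CPM in FOXP3-high and 398 to 529.8 CPM in FOXP3-low, with 4 of the 6 tested lower. The 2 CD8 T cell genes summed to 8.91 to 12.7 CPM in FOXP3-high and 26.2 to 34.0 CPM in FOXP3-low, and both were lower. Mki67, the proliferation antigen, changed by -2.29, and Idi1 over Mki67 counts were 0.0351 ± 0.0052 in FOXP3-high and 0.0193 ± 0.0009 in FOXP3-low. That ratio likewise restates the fold changes of its genes. The summed synthesis enzymes were at 478, 475 and 439.8 CPM in FOXP3-high and at 698, 685, 696 and 696 CPM in FOXP3-low. The part of macrophage, neutrophil, dendritic cell, B cell, CD8 T cell, endothelial and fibroblast RNA and of cell division in the lower cholesterol genes was not tested.

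**Figure D4:**
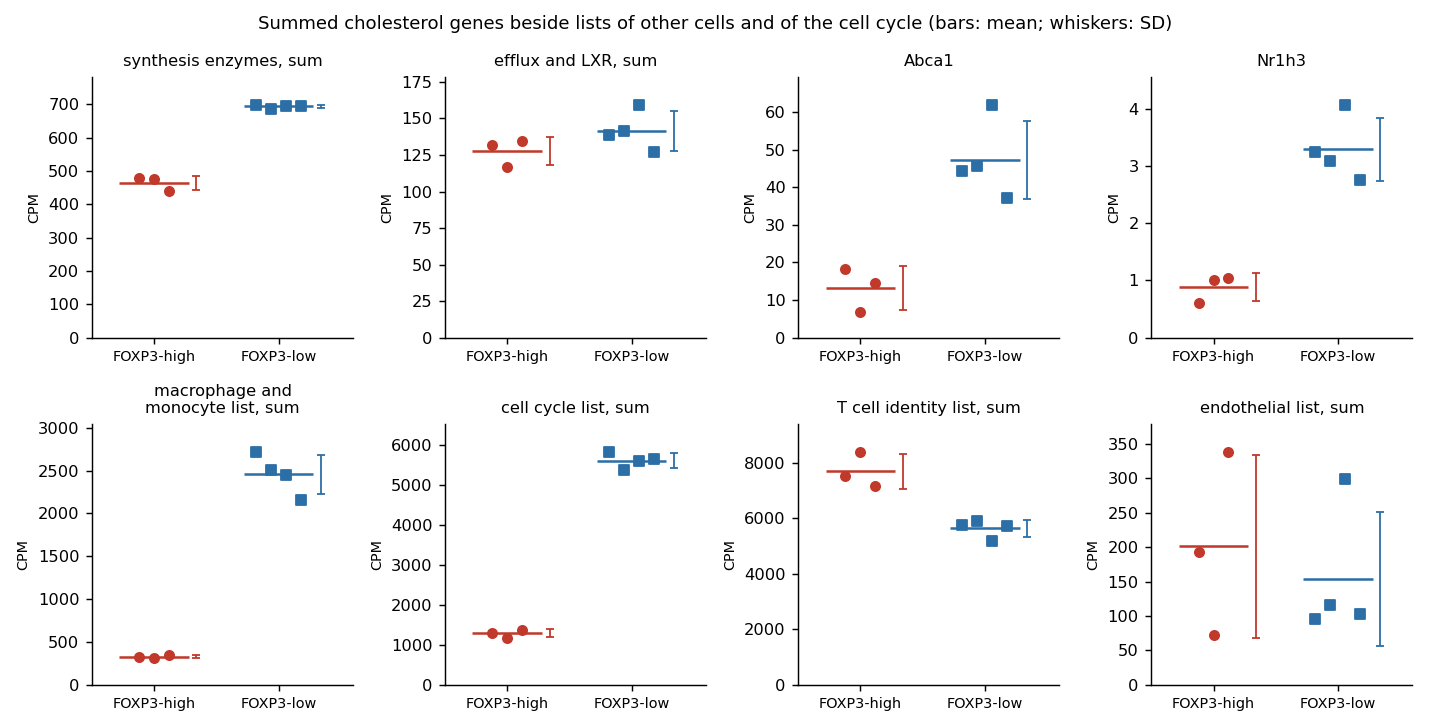
Summed CPM of the synthesis and of the efflux and LXR genes, CPM of Abca1 and Nr1h3, and summed CPM of 4 marker lists in each library, with FOXP3-high as circles on the left and FOXP3-low as squares on the right; bars are means and whiskers SDs (n = 3 and n = 4). The synthesis sum, Abca1, Nr1h3, the macrophage and monocyte list and the cell cycle list are lower in all FOXP3-high libraries, the T cell identity list is higher in all of them, and the endothelial list is highest in the libraries numbered 3.

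Other genes around the pathway were taken from lists of general knowledge. Among 13 genes that use isoprenoids for dolichol, ubiquinone and protein prenylation, 4 fell, 1 rose and 8 did not pass, with a median of -0.14; the 38.5% called lay below the 46.5% of all genes. Dhdds, a subunit of the dolichol synthase, averaged 12.1 ± 0.63 CPM in FOXP3-high and 17.2 ± 1.35 CPM in FOXP3-low, Rabggtb, which prenylates Rab proteins, 32.6 ± 1.78 CPM in FOXP3-high and 43.8 ± 5.02 CPM in FOXP3-low, and Pdss1, of ubiquinone side chain synthesis, 1.64 ± 0.404 CPM in FOXP3-high and 3.23 ± 0.442 CPM in FOXP3-low. Each fell (edgeR adjusted p = 0.0034, 0.0065 and 0.013). Trit1, which isoprenylates transfer RNA, rose to 17.5 ± 0.549 CPM in FOXP3-high, against 13.3 ± 1.4 CPM in FOXP3-low (edgeR adjusted p = 0.017), with -0.055 under T cell scaling.

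Of 10 genes of SREBP processing and of sterol-regulated degradation 4 rose, 1 fell and 5 did not pass, so that 50% were called, near the 46.5% of all genes. Erlin1, a sterol-binding scaffold of the endoplasmic reticulum, had a log2 fold change of -1.66 ± 0.11 (edgeR adjusted p = 3.21e-06), at 6.88 ± 0.378 CPM in FOXP3-high and 21.7 ± 1.88 CPM in FOXP3-low, while Erlin2, its partner, did not pass (0.054, adjusted p = 0.78). Marchf6, a ligase that degrades Sqle, Mbtps1, the protease that first cuts SREBP, and Rnf139, a ligase of the sterol-sensing membrane, rose by 0.27, 0.23 and 0.48 on the log2 scale (edgeR adjusted p = 0.010, 0.023 and 0.024). Under T cell scaling these 3 stood at -0.17, -0.21 and 0.028.

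Of 10 genes of intracellular sterol transport 2 rose, 2 fell and 6 did not pass, or 40% called against 46.5% of all genes. Gramd1a, which carries cholesterol from the plasma membrane to the endoplasmic reticulum, rose to 427 ± 27.7 CPM in FOXP3-high, against 242 ± 14.3 CPM in FOXP3-low (log2 fold change 0.82 ± 0.061, edgeR adjusted p = 5.61e-06), and kept this direction under T cell scaling (0.37, adjusted p = 2.34e-04). Npc2, the lysosomal cholesterol carrier, fell by 0.46 on the log2 scale to 77 ± 1.73 CPM in FOXP3-high, against 106 ± 5.21 CPM in FOXP3-low (edgeR adjusted p = 1.57e-04). Stard5 rose by 0.51 and Tmem97, a sterol-regulated membrane protein, fell by 0.73 at about 2 CPM (edgeR adjusted p = 2.70e-04 and 0.031).

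Of 8 lipoprotein and sterol uptake genes 4 fell and 4 did not pass, with none higher, again 50% called. Msr1, the macrophage scavenger receptor, was at 3.79 ± 2.32 CPM in FOXP3-high and 69.8 ± 10.7 CPM in FOXP3-low. Lrp1, a large endocytic receptor, was at 23.7 ± 8.42 CPM in FOXP3-high and 184 ± 9.71 CPM in FOXP3-low. Their log2 fold changes were -4.16 and -2.95 (edgeR adjusted p = 9.86e-06 and 3.48e-06), in the direction of the macrophage list. The part of macrophage RNA in Msr1 and Lrp1 was not tested. Lrpap1, a chaperone of Lrp1, and Lrp8 fell by 0.67 and 0.31 on the log2 scale (edgeR adjusted p = 5.93e-05 and 0.029). Of the 8 tested among 10 oxysterol and LXR partner genes 4 rose and none fell, or 50% called. Ncor1, a corepressor of nuclear receptors, was at 853 ± 38.2 CPM in FOXP3-high and 687 ± 10.4 CPM in FOXP3-low, and Ttc39b, which promotes the turnover of LXR, at 145 ± 19.4 CPM in FOXP3-high and 94 ± 5.07 CPM in FOXP3-low (edgeR adjusted p = 2.42e-04 and 2.72e-04). Gpr183, the receptor for oxysterol chemoattractants, and Rxrb, a partner receptor of LXR, rose by 0.47 and 0.33 on the log2 scale (edgeR adjusted p = 0.0038 and 0.019). Under T cell scaling Ttc39b remained above 0 (0.18, adjusted p = 0.033), Gpr183 stood at 0.024 and Ncor1 and Rxrb turned to -0.14 and -0.11.

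Several enzymes share their locus with another gene. Hmgcs1 overlaps Gm48342, Cyp51 overlaps Akap9 and Fdft1 overlaps Ctsb, each on the opposite strand. Gm48342 held 32.6% as many counts as Hmgcs1 and changed by -1.09. Akap9 held 8.2 times as many counts as Cyp51 and changed by 0.51, opposite to Cyp51. Ctsb, a lysosomal protease abundant in macrophages, held 9.6 times as many counts as Fdft1 and changed by -1.30. The libraries were made with a stranded kit, but without the counting setting the reads of these pairs were not separated with certainty.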

How the data were processed

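The authors deposited 1 table of whole-number counts per gene for the 7 libraries, with gene coordinates and a length in bases per gene, without normalization; per the submitters' processing notes it was made with fastp 0.23.4, STAR 2.5.3a and featureCounts, with GRCh38 and GRCm39 named, and the mouse coordinates are given here as GRCm39. RNA was taken with TRIzol into a stranded mRNA kit, per the labels' protocols. The sources used here do not give the strand setting of the counting or how shared and duplicate reads were treated. Groups and replicate numbers came from the titles. No column of sample values was left unmapped.

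Counts were fitted in R 4.3.3 with edgeR 4.0.16 over the whole table (filterByExpr with min.count 10 and min.total.count 15, TMM, glmQLFit, glmQLFTest, no block), with Benjamini-Hochberg adjustment over 15838 genes at 0.05. Standard errors were derived from each gene's F statistic and fold change. Replicates of a group differed by more than counting noise in every pair (chi-square per gene 3.98 to 12.2). Alternatives were DESeq2 size factors, upper quartile factors, total counts, T cell identity scaling, no filter, at least 50 counts in 3 libraries, DESeq2's own test (Wald, version 1.42.0), voom in limma 3.58.1 with and without sample weights, glmTreat, leaving out each library or both numbered 3, and a replicate block. The edgeR step was tested on simulated data. Near-identical transcripts (at least 95% over 400 bases) were sought with BLAST+ 2.17.0 in GENCODE M21 transcripts, by name only; overlapping genes were named at 10% of a gene's counts. All 31 genes are accounted for; in the other pathway lists up to 4 genes with the smallest adjusted p were named, and Itgam, Mki67 and Erlin2 were chosen after their values were seen. The genes, lists and T cell scaling were chosen with earlier results of these data known.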

Additional observations from a re-analysis of the deposited data

Results flagged for a closer look

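Of 69 values examined in the 4 FOXP3-low libraries (each cholesterol gene, list sum and ratio, Foxp3 and the total count), 2 had 1 library far from the other 3; chance alone gives about 1 in 20. The summed endothelial genes were at 298.7 CPM in FOXP3-low replicate 3, against 95.3 to 116 CPM in the others. The summed fibroblast genes were at 432 CPM in the same library, against 50.1 to 74.2 CPM in the others. None of the 31 cholesterol genes was among them.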

How the results depend on the processing

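The 16 decreases kept their direction and call under each alternative that tested them against a change of 0. Nr1h3 was not tested with at least 50 counts in 3 libraries. T cell scaling is no separate check of these decreases, because it moved the median of all genes to -0.43. Scaling to T cell identity genes moved the median of the synthesis enzymes to -0.92 and turned that of the efflux and LXR genes to -0.28; it also turned Acat2 (-0.091), Ggps1 (-0.050), Tm7sf2 (-0.41), Scap (-0.15), Insig2 (-0.34), Abcg1 (-0.28) and Nr1h2 (-0.20). Under glmTreat 1118 of all genes, 3 cholesterol genes, 1 synthesis gene and 2 efflux and LXR genes were called, fewer because the null hypothesis is wider. Without both libraries numbered 3 the synthesis median was -0.34. Leaving out 1 library gave 6392 to 6890 called genes, 18 to 20 cholesterol genes, 11 to 12 synthesis genes and 4 efflux and LXR genes, with synthesis medians of -0.61 (without FOXP3-high replicate 1) to -0.36 and efflux medians of 0.038 (without FOXP3-high replicate 3) to 0.24. Genes near 0 changed sign: Lbr to 0.035 with upper quartile factors, 0.052 with total counts and 0.051 without both libraries numbered 3, and Tm7sf2 to -0.0082 without a filter, -0.0032 with voom quality weights and -0.017 without both libraries numbered 3. Leaving out 1 library gave -0.060 to 0.050 for Lbr, -0.080 to 0.12 for Tm7sf2, -0.26 to 0.082 for Dhcr7 and -0.089 to 0.26 for Insig2. Without a filter Nr1h2 (adjusted p = 0.060) and Scap were not called and Srebf2 was (-0.23, adjusted p = 0.023). Where a value moved with the scaling or a left-out library, the cause was not tested.

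Same-numbered libraries did not all deviate together: the correlations across genes of their deviations from the group means were -0.10, 0.097 and 0.53 for numbers 1, 2 and 3. The labels name no shared source behind a number, and the number 3 libraries, which deviated together, are those high in endothelial genes. FOXP3-high replicates 1 and 2 did not correlate best with their own number. The replicate block, in which FOXP3-low replicate 4 has no partner, called 7029 of all genes, 19 cholesterol genes, 12 synthesis genes and 4 efflux and LXR genes, with medians of -0.46 and 0.13; Ggps1 (0.35, adjusted p = 0.087) and Scap (0.31, 0.11) were not called, Sc5d was (-0.31, 0.035), and Tm7sf2 (-0.10), Lbr (0.011) and Dhcr7 (0.035) changed sign. CCAAT counted on the gene strand only was in 9 synthesis genes, and counting CACGTG with the sterol regulatory elements gave 5. Depth limits Nr1h3, Tm7sf2, Hsd17b7, Mvk, Acat2 and Dhcr7, which held fewer than 100 counts in each library.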
